A study of Triticum turgidum subsp. durum with 96 samples.

Results

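Tamaroi and EGA Bellaroi are durum wheat (Triticum turgidum subsp. durum) genotypes that the labels class as tolerant of and sensitive to water deficit stress, respectively. Their flag leaves, the uppermost leaves below the head, gave 24 of the 96 small RNA libraries of the series, chosen by genotype and tissue in the sample labels. There were 12 libraries per genotype: 6 from the control group (CG, plants kept at 12% soil water content) and 6 from the water deficit stress group (WG, 6% soil water content for 15 d from booting). Within each group of 6 there were 3 libraries from season 1 and 3 from season 2, each from a numbered plant that also gave a library of its developing head. Conserved miRNAs were deposited as RPM (miRNA reads scaled to the depth of the whole small RNA library) for 110 mature sequences, and candidate precursor hairpins without a known mature miRNA as log2 CPM (log2 of counts scaled to library size) for 159 hairpins. The tolerance class was carried by 1 genotype on each side, so tolerance and every other difference between the cultivars cannot be told apart in this pair.

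Plant miRNAs are cut from hairpin precursors as a short duplex with a 5p and a 3p strand. Usually 1 strand is loaded into an ARGONAUTE protein, where it directs cleavage or silencing of mRNAs with a nearly complementary site. Many old families act on transcription factors: miR156 on SPL genes that promote the change from juvenile to adult growth, miR166 on the HD-ZIP III genes of leaf polarity, and miR171 on GRAS genes. The copper families miR397, miR398, miR408 and miR528 act on mRNAs of copper proteins, miR395 acts on sulfate uptake and assimilation, and miR5200 is known in Brachypodium distachyon to repress the flowering gene FT. Names in the conserved table carry the species of the matching database entry (Ath, Arabidopsis; Bdi, Brachypodium; Gma, soybean; Hvu, barley; Osa, rice; Sbi, sorghum; Tae, bread wheat; Zma, maize), and the authors allowed mismatches, so a listed sequence need not be the exact durum sequence.

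The 6 conserved miRNAs that differed between the genotypes are shown 5′ to 3′ with bases 2 to 8 (the seed) in capitals. Last comes Ath-miR166b, a miR166 3p sequence, for comparison.
Zma-miR166a: gGAATGTTgtctggctcgggg
Osa-miR5077: gTTCGCGTcgggttcacca
Bdi-miR5054: tCCCCACGgtcggcgcca
Gma-miR5368: gGACAGTCtcaggtagaca
Bdi-miR5200: tGTAGATActctctaaggctt
Tae-miR1117: tAGTACCGgttcgtggcacgaacc
Ath-miR166b: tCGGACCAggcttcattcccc

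Zma-miR166a belongs to the 5p strand of the miR166 duplex. Of its bases, 13 of the 19 that face Ath-miR166b, a 3p sequence, can pair with it when the strands are laid against each other with an overhang of 2 bases. Each of the other 5 called sequences has a seed that no other listed miRNA shares. Osa-miR5077 (19 nt) and Bdi-miR5054 (18 nt) are 2 of the 5 listed sequences that end in CCA, the end that is added to tRNAs. Tae-miR1117, at 24 nt, is longer than most of the 110, of which 66 have 21 nt.

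A second set of sequences shows the members of miR156 and of the copper families whose values are given for their groups, with the same bases in capitals.
Ath-miR156g: cGACAGAAgagagtgagcac
Ath-miR156b: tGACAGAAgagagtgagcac
Zma-miR156k: tGACAGAAgagagcgagcac
Gma-miR156k: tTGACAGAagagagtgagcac
Bdi-miR156h: gCTCACTGctcttcctgtcatc
Tae-miR408: cTGCACTGcctcttccctggc
Bdi-miR528: cCTGTGCCtgcctcttccatt
Zma-miR528a: tGGAAGGGgcatgcagaggag

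Counted from 1 at the 5′ end, Ath-miR156g differs from Ath-miR156b by T1C and Zma-miR156k differs from it by T14C. Reads of such near-identical sequences can be divided between the entries by the alignment, so single miR156 members are uncertain and the family is better read as a whole.

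Each of the 2637 RPM values above 0 in these libraries was a whole number of reads, within 0.01 reads, at 1 step size per library, which gave depths of 3.66 to 11.74 M reads (M, mega; median 6.31) in Tamaroi and 2.14 to 13.99 M (median 5.55) in EGA Bellaroi. Mean depth did not differ beyond the spread over all 24 libraries (permutation test, two-sided, p = 0.599), but in the WG it was 7.66 M against 4.58 M (exact permutation test, two-sided, p = 0.0108; 0.130 after Benjamini-Hochberg adjustment over 12 such tests). Summed over the 110 miRNAs, Tamaroi libraries held 37592 ± 8416 RPM and those of EGA Bellaroi 38573 ± 9723 RPM (SD, n = 12 each; permutation test, two-sided, p = 0.793). As a check of the tissue label, Bdi-miR319b lay between 2.86 and 15.7 RPM in the 24 leaf libraries and between 215 and 1197 RPM in the heads of the same plants, and Zma-miR171d between 2.68 and 11.2 RPM against 38.2 to 227 RPM.

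Among the leaf libraries, 5 EGA Bellaroi libraries of season 2 stood apart (CG 2-a, 2-b and 2-c; WG 2-a and 2-b, by season and plant letter). Their log2 CPM of the hairpin Ttu pre-miR132 was −1.39 to 1.02, against 2.08 or more in each of the other 19 libraries, and of Ttu pre-miR157 at most 1.33 against at least 2.13. Their depths were 4.61 to 13.99 M reads. These 5 libraries were named after the values were seen, and they are not a group of the study. The miRNAs and hairpins called in the leaf, and some other results, are given with and without them. The fits that include the heads were not run without them.

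The first question was which conserved miRNAs differed between the tolerant and the sensitive genotype whatever the watering. Zma-miR166a, Osa-miR5077, Gma-miR5368 and Bdi-miR5054 were more abundant in Tamaroi, about 2-fold, and Bdi-miR5200 and Tae-miR1117 were more abundant in EGA Bellaroi. These were 6 of 110 miRNAs (percent called 5.45) in limma's test on log2(RPM + 1) with treatment as a covariate, at a Benjamini-Hochberg adjusted p of 0.05. At an unadjusted p of 0.05 there were 26. The leaves were sequenced whole, so a change within cells and a change in the share of a cell type cannot be told apart. The median difference over all 110 was −0.11 on the log2 scale, and 0.01 after median-ratio scaling of the libraries, so differences are read against that shift. Scaling raised the count to 14, 11 higher and 3 lower, of which 5 were among the 6.

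Zma-miR166a is a 5p sequence of the family whose 3p strands act on HD-ZIP III mRNAs. In Tamaroi it ranged from 43.1 to 112.9 RPM (median 78.5) in the CG and from 40.1 to 110.4 RPM (median 59.0) in the WG. In EGA Bellaroi it ranged from 23.4 to 77.2 RPM (median 39.7) in the CG and from 21.3 to 37.4 RPM (median 28.8) in the WG. All 12 Tamaroi libraries lay above the EGA Bellaroi median, and in the WG the genotypes did not overlap. The log2 difference was 1.01 (SE 0.22; limma, adjusted p = 0.00869), 0.91 in the CG and 1.11 in the WG, 0.96 in season 1 and 1.06 in season 2. Without the 5 EGA Bellaroi libraries it was 0.76, and the call was lost (adjusted p = 0.130).

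The 3 listed 5p sequences of miR166 had differences of 0.45 to 1.01 with a median of 0.70, and the 11 listed 3p sequences a median of −0.18 with a range of −0.50 to 0.17. Without the 5 libraries the medians were 0.44 and −0.35. The related Ath-miR165a had −0.10. Together the 3p sequences took 5761 to 14911 RPM (median 8177) in Tamaroi and 5109 to 20174 RPM (median 9114) in EGA Bellaroi and the ranges overlapped. The log2 ratio of Zma-miR166a to the summed 3p sequences was −7.80 to −5.87 (median −6.94) in Tamaroi and −8.71 to −7.20 (median −7.99) in EGA Bellaroi, with a median of −7.85 without the 5 libraries. This ratio was chosen after the values of Zma-miR166a were seen and is a description only. Bdi-miR166a, another 5p sequence, had 0.70 (SE 0.27; adjusted p = 0.112), and Zma-miR166m 0.45; without the 5 libraries they had 0.44 and 0.03.

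Osa-miR5077 was the most abundant of the short sequences. Its values were 126 to 256 RPM (median 212) in Tamaroi CG and 76.7 to 351 RPM (median 142) in Tamaroi WG. In EGA Bellaroi they were 53.6 to 156 RPM (median 105) in the CG and 38.0 to 104 RPM (median 59.7) in the WG. In Tamaroi 8 libraries exceeded every EGA Bellaroi library, and no EGA Bellaroi library reached the Tamaroi median. The log2 difference was 1.08 (SE 0.25; adjusted p = 0.00869), and 1.19 without the 5 libraries (adjusted p = 0.0601).

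Bdi-miR5054 followed the same order at a lower level. It had 33.9 to 87.1 RPM (median 56.2) in Tamaroi CG and 22.3 to 57.2 RPM (median 33.3) in Tamaroi WG. EGA Bellaroi had 20.6 to 42.0 RPM (median 27.5) and 10.2 to 34.1 RPM (median 20.1). The groups overlapped, with 7 Tamaroi libraries above all of EGA Bellaroi. The log2 difference was 0.87 (SE 0.22; adjusted p = 0.0159), and 0.94 without the 5 libraries (adjusted p = 0.0847).

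Gma-miR5368 had 18.0 to 49.1 RPM (median 35.0) in Tamaroi CG and 15.9 to 63.5 RPM (median 26.9) in Tamaroi WG. In EGA Bellaroi it had 10.9 to 36.7 RPM (median 18.5) in the CG and 7.40 to 25.9 RPM (median 11.1) in the WG. In Tamaroi 11 of 12 libraries lay above the EGA Bellaroi median. The log2 difference was 0.91 (SE 0.25; adjusted p = 0.0223). It was 0.98 without the 5 libraries (adjusted p = 0.0847), and the call was also lost when EGA Bellaroi WG 2-b alone was left out (adjusted p = 0.0534). The fourth sequence that was listed with these 3 as possibly derived from other structural RNAs, Gma-miR6300, had −0.05 (SE 0.34). The 4 had a median of 0.89 (0.96 without the 5 libraries), with 3 of 4 called, against 6 of 110 (percent called 5.45) over all miRNAs, and 0 of 4 called without the 5 libraries.

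Bdi-miR5200 had the largest difference among the 110, and it was uneven within EGA Bellaroi. All 12 Tamaroi libraries lay between 25.7 and 216 RPM (medians 128 in the CG and 150 in the WG). In EGA Bellaroi CG the season 1 libraries had 80.4, 124 and 81.9 RPM and the season 2 libraries 837, 771 and 2370 RPM. In EGA Bellaroi WG the season 1 libraries had 3837, 3148 and 206 RPM and the season 2 libraries 2124, 2244 and 241 RPM. The high values, at 771 RPM or more, were thus in the 5 libraries that stood apart and in WG 1-a and 1-b, whose pre-miR132 values of 3.31 and 4.73 were like those of the other libraries. The log2 difference was −2.33 (SE 0.56; adjusted p = 0.0115), −1.64 in the CG and −3.01 in the WG. Without the 5 libraries it was −1.33 (adjusted p = 0.215).

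Tae-miR1117, a 24 nt sequence of the repeat-like set, had 3.33 to 6.78 RPM (median 5.04) in Tamaroi CG and 3.32 to 9.02 RPM (median 4.65) in Tamaroi WG. EGA Bellaroi had 5.25 to 9.91 RPM (median 7.20) and 6.02 to 10.3 RPM (median 7.51). In Tamaroi 8 libraries lay below every EGA Bellaroi library. The log2 difference was −0.52 (SE 0.16; adjusted p = 0.0489), close to the threshold: it passed in 7 of 24 fits that each left out 1 library, and had an adjusted p of 0.171 without the 5.

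**Figure D1:**
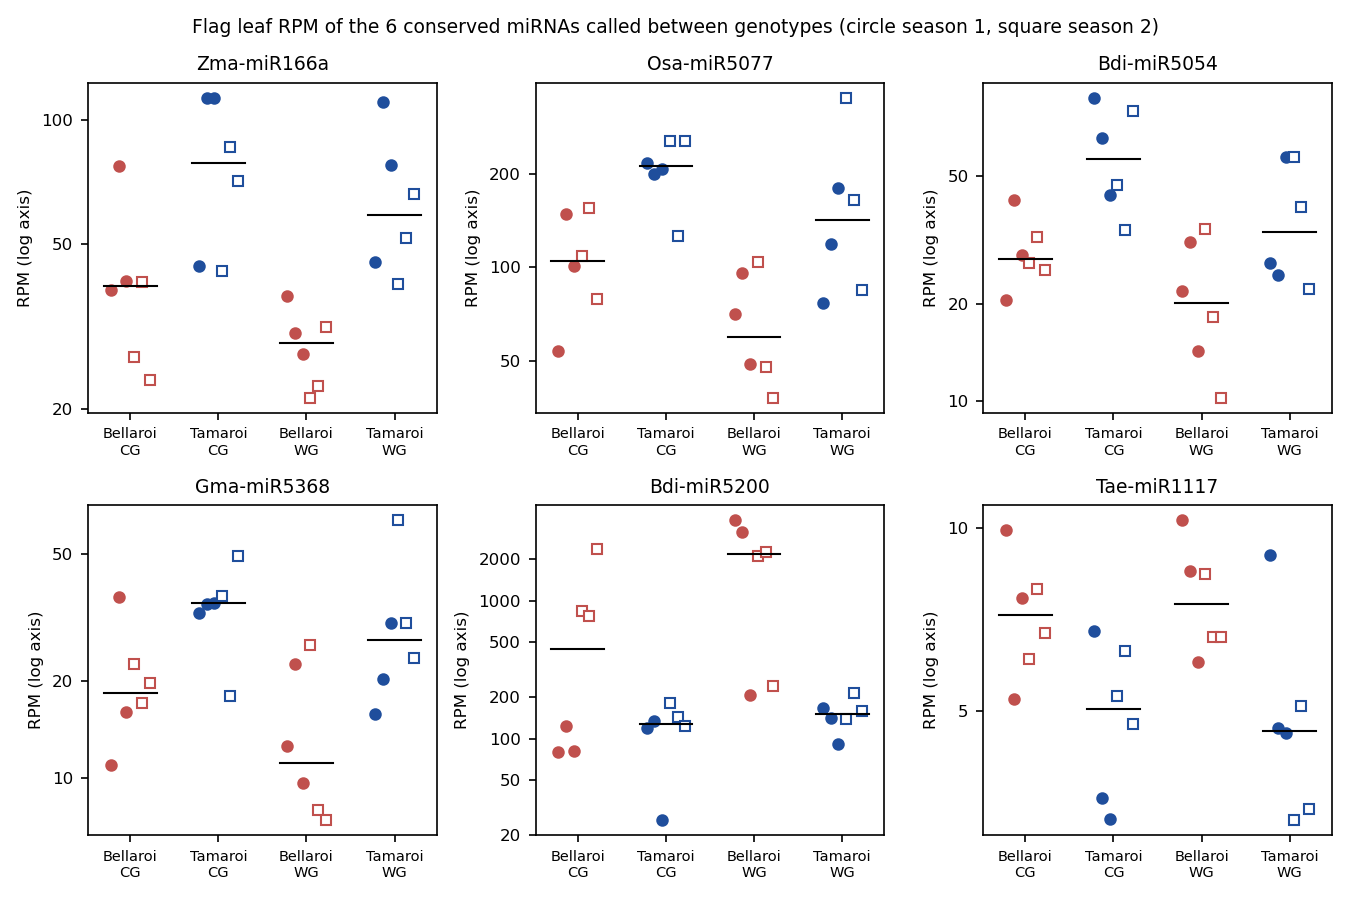
RPM (log axis) of the 6 called miRNAs in the 4 flag leaf groups; each point is 1 library (filled circle, season 1; open square, season 2; red, EGA Bellaroi; blue, Tamaroi) and each line the median of 6. Tamaroi sits higher for Zma-miR166a, Osa-miR5077, Bdi-miR5054 and Gma-miR5368, and 7 EGA Bellaroi libraries reach 771 to 3837 RPM of Bdi-miR5200.

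The 110 miRNAs were also grouped into lists by family and the role of its targets, whichever strand of the duplex a sequence comes from. The copper list thus holds both strands of some families. Bdi-miR528 is close to the reverse complement of Zma-miR528a, and Sbi-miR397 to that of Bdi-miR397b. The 7 sequences of the copper families (miR397, miR398, miR408, miR528) all had positive differences, against 42 of all 110. Their median was 0.83 against −0.11 for all 110. At an unadjusted p of 0.05 there were 3 of 7, against 12 of 110 higher over all miRNAs, and 0 were called. The median was 1.74 in the CG and 0.39 in the WG. The median stayed positive after scaling (0.96) and without the 5 libraries (1.02).

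Tae-miR408, which acts on mRNAs of copper proteins such as plantacyanins, had 3.21 to 26.0 RPM (median 5.64) in Tamaroi CG and 3.85 to 39.9 RPM (median 11.9) in Tamaroi WG. EGA Bellaroi had 0 to 17.2 RPM (median 1.16) and 0.848 to 25.8 RPM (median 5.44). All 12 Tamaroi libraries exceeded the EGA Bellaroi median, with wide overlap (log2 difference 1.48, SE 0.49; adjusted p = 0.0631). Gma-miR408d, from the same family, had 1.24 (SE 0.58; adjusted p = 0.180).

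Bdi-miR528 had 7.55 to 61.7 RPM (median 32.8) in Tamaroi CG against 3.14 to 14.8 RPM (median 5.89) in EGA Bellaroi CG. In the WG the medians were 30.6 and 36.1 RPM, with highest values of 501 and 203 RPM. The additive difference was 1.30 (SE 0.53; adjusted p = 0.124), made of 1.94 in the CG and 0.66 in the WG. Zma-miR528a had 0.83 (SE 0.49; adjusted p = 0.330).

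The 7 miR156 sequences also all had positive differences, against 42 of all 110. They ranged from 0.07 to 0.77, with a median of 0.49 (0.62 after scaling). At an unadjusted p of 0.05 there were 4 of 7, against 12 of 110 higher over all miRNAs, and 0 were called. Without the 5 libraries 5 of the 7 were positive, with a median of 0.28 against −0.20 over all 110; Tae-miR156 then had −0.02 and Gma-miR156q −0.24. Zma-miR156k had the largest, 0.77 (SE 0.26; adjusted p = 0.0631). Its values were 6.92 to 27.2 RPM (median 25.0) in Tamaroi CG and 8.60 to 29.5 RPM (median 19.7) in Tamaroi WG, against 6.95 to 23.0 RPM (median 9.98) and 7.01 to 26.8 RPM (median 8.96) in EGA Bellaroi. Ath-miR156g had 0.64 (SE 0.21; adjusted p = 0.0631), and 12 of 12 Tamaroi libraries were above its EGA Bellaroi median. The abundant members overlapped more: Ath-miR156b had medians of 2676 and 2399 RPM in Tamaroi CG and WG and of 1832 and 1838 RPM in EGA Bellaroi (0.47, SE 0.23; adjusted p = 0.198), and Gma-miR156k had 0.49 (SE 0.25; adjusted p = 0.220). Bdi-miR156h, which is counted among the 7, had 0.69 (SE 0.28; adjusted p = 0.124). Its sequence is close to the reverse complement of the other miR156 sequences shown, and its seed is unlike theirs.

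Of the 19 repeat-like sequences, 14 had negative differences, as did 68 of all 110, with a median of −0.25 (−0.14 after scaling). The 1 called of 19 is near the 5.45% of all miRNAs, and 7 of 19 were lower at an unadjusted p of 0.05, against 14 of 110. Hvu-miR5049e had −0.59 (SE 0.20; adjusted p = 0.0677). Both miR171 sequences were negative: Bdi-miR171d had 2.33 to 4.43 RPM in Tamaroi CG and 2.45 to 4.62 RPM in Tamaroi WG against 2.26 to 6.70 RPM and 3.46 to 9.18 RPM in EGA Bellaroi (−0.47, SE 0.16; adjusted p = 0.0631). Zma-miR171d, which differs from it by A11G, had −0.41 (SE 0.19).

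Tae-miR395b, a sulfate miRNA, had 0.643 to 26.0 RPM (median 5.23) in Tamaroi CG and 1.28 to 57.5 RPM (median 11.8) in Tamaroi WG. EGA Bellaroi had 6.94 to 168 RPM (median 50.1) in the CG and 2.26 to 119 RPM (median 39.9) in the WG. The difference of −1.75 (SE 0.72) was the second largest in size in the negative direction and did not pass (adjusted p = 0.129). Libraries within each group spread over more than 10-fold. Bdi-miR7757 had −0.78 (SE 0.26; adjusted p = 0.0631), Osa-miR5071 −0.70 (SE 0.27; adjusted p = 0.112) and Osa-miR396f, of the family that acts on growth-regulating factors, −0.50 (SE 0.19; adjusted p = 0.112).

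The medians of the lists not described here lay between −0.44 and 0.29, with no member called. The medians of miR396, of miR164, of miR159 with miR319 and of miR165 with miR166 changed sign under scaling, so no direction is given for these lists. No miRNA separated the genotypes completely over the 24 libraries or in the CG, and 3 did in the WG (percent 2.73), where mean depth was 7.66 M reads in Tamaroi and 4.58 M in EGA Bellaroi: Zma-miR166a higher in Tamaroi, Osa-miR5071 and Tae-miR1136 lower.

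**Figure D2:**
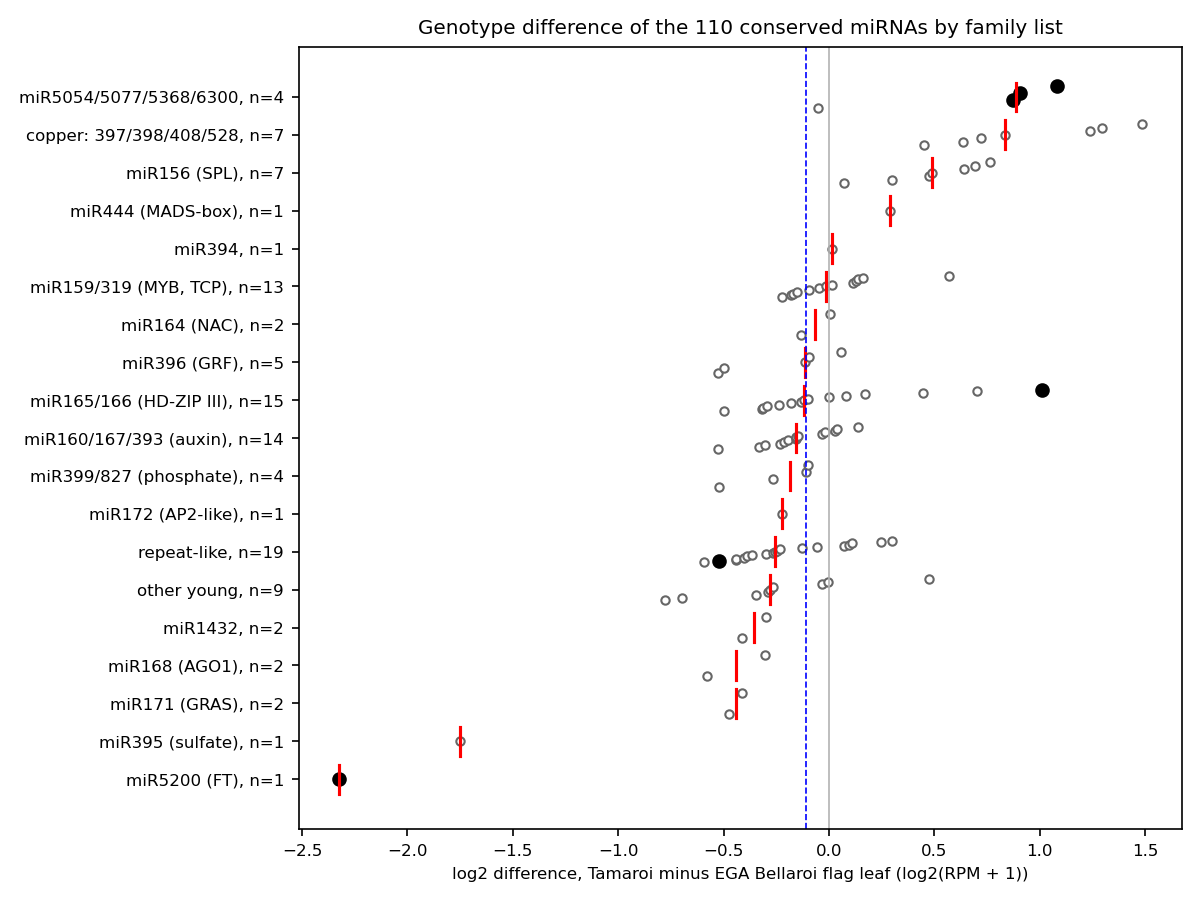
Log2 difference (Tamaroi minus EGA Bellaroi, log2(RPM + 1)) of each of the 110 conserved miRNAs by list; filled points passed an adjusted p of 0.05, the red bar is the list's median and the dashed line the median of all 110 (−0.11). All 7 points of the copper families and all 7 of miR156 lie above 0, and the filled points are the 6 called miRNAs.

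The study's own criteria for conserved miRNAs use the ratio of mean RPM over 6 libraries (above 1.5-fold, with at least 10 RPM in 1 group) and no replicate error. By these, 17 miRNAs differed in the CG (percent 15.5), 15 higher and 2 lower in Tamaroi, and 28 in the WG (percent 25.5), 9 higher and 19 lower. The same way in both treatments were 10 (percent 9.09), of which limma called 5: Zma-miR166a, Osa-miR5077, Bdi-miR5054 and Gma-miR5368 higher, and Bdi-miR5200 lower. The other 5 were Bdi-miR156h, Zma-miR156k, Tae-miR408 and Bdi-miR528 higher and Tae-miR395b lower.

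The ratio of means was 1.90 in the CG and 2.30 in the WG for Zma-miR166a, and 1.95 and 2.41 for Osa-miR5077. For Bdi-miR5200 it was 0.170 and 0.0773, and for Tae-miR395b 0.150 and 0.386. The mean of Bdi-miR528 was 4.42 times higher in Tamaroi CG and 2.86 times in Tamaroi WG, although its median in the WG was lower in Tamaroi. The Tamaroi WG libraries 2-a and 2-c held 469 and 501 RPM and the other 4 between 15.6 and 32.5 RPM. Opposite ways in the treatments were 2: Ath-miR319b (1.53 in the CG, 0.658 in the WG) and Zma-miR399c (1.74 and 0.490).

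The second question was whether the genotype difference depended on watering. In limma's genotype by treatment test 0 of 110 miRNAs passed (percent called 0), and 3 had an unadjusted p under 0.05. In all 3 the log2 difference was positive in the CG and negative in the WG. It was 2.00 and −0.33 for Zma-miR528a, 1.59 and −0.69 for Zma-miR398b, and 0.86 and −0.58 for Ath-miR319b. Zma-miR528a, which acts on mRNAs of copper proteins, had medians of 944 and 643 RPM in Tamaroi CG and WG and of 167.1 and 675 RPM in EGA Bellaroi. Its range in EGA Bellaroi CG was 58.7 to 1169 RPM, which overlaps every other group. The interaction was −2.33 (SE 0.87; adjusted p = 0.801). It was −3.22 without the 5 libraries (adjusted p = 0.132).

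Zma-miR398b, known to act on copper/zinc superoxide dismutase mRNAs, had medians of 429 and 353 RPM in Tamaroi and 176 and 568 RPM in EGA Bellaroi in the CG and WG, and an interaction of −2.28 (SE 0.97; adjusted p = 0.801). Ath-miR319b, of the family that acts on TCP genes, had −1.43 (SE 0.67; adjusted p = 0.801). At this spread an interaction of such a size could not be told from 0 after adjustment.

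The hairpin table was compared in the same way. Ttu pre-miR054 and Ttu pre-miR056 were higher in Tamaroi, and these were 2 of 159 hairpins (percent called 1.26); 19 had an unadjusted p under 0.05, 7 higher and 12 lower. Both lie on the long arm of chromosome 2D of the bread wheat survey sequence (IWGSC CSS), pre-miR054 on contig 9835395 from 4416 to 5035 and pre-miR056 on contig 9846594 from 5420 to 6040. Durum wheat has no D genome, so these positions name where the reads matched in bread wheat and not a durum locus. Their values were equal in 23 of the 24 libraries, and they are counted here as 1 measurement under 2 names.

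In Tamaroi, pre-miR054 had log2 CPM of 0.86, 2.69, −0.13, 1.78, 0.74 and 1.43 in the CG and 2.60, 1.64, 1.83, 1.04, 1.44 and 2.46 in the WG. In EGA Bellaroi, 8 of 12 libraries were at the lowest value of their own library, which was taken as 0 reads and lay between −4.66 and −2.51. The other 4 (CG 1-a and 1-c, WG 1-c and 2-c) had 0.85, 1.45, 1.16 and 1.10, inside the Tamaroi range. Each EGA Bellaroi library was thus either within the Tamaroi range or at its floor, and the 8 at the floor were the 5 that stood apart with CG 1-b, WG 1-a and WG 1-b.

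The log2 difference of pre-miR054 was 3.28 (SE 0.66; limma, adjusted p = 0.0037) and that of pre-miR056 3.15 (SE 0.64; adjusted p = 0.0037). Because floors differ between libraries, the size depends on them. The count of libraries at the floor was 0 of 12 against 8 of 12 for pre-miR054, and 0 against 7 for pre-miR056. This count can depend on depth: CG 1-b, WG 1-a and WG 1-b, at 3.43, 2.14 and 3.54 M reads, were the shallowest EGA Bellaroi leaf libraries. The 5 that stood apart had 4.61 to 13.99 M reads. Without the 5 libraries both had 2.00 (adjusted p = 0.241). In season 1 the pre-miR054 difference was 2.29 and in season 2 it was 4.28.

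Among the hairpins that did not pass, Ttu pre-miR158 had 1.09 to 2.80 (median 1.65) in Tamaroi CG and 1.39 to 2.49 (median 2.06) in Tamaroi WG, against 1.66 to 3.32 (median 2.68) and 1.94 to 3.28 (median 2.98) in EGA Bellaroi (−0.82, SE 0.23; adjusted p = 0.0904). Ttu pre-miR154 had medians of −3.35 and −0.68 in Tamaroi and 0.08 and 1.02 in EGA Bellaroi (−1.66, SE 0.50; adjusted p = 0.106), with 4 Tamaroi libraries at the floor. The differences of pre-miR158 and pre-miR154 were −0.44 and −0.84 in season 1 and −1.21 and −2.49 in season 2. The abundant Ttu pre-miR067 had medians of 6.47 and 6.44 in Tamaroi and 7.22 and 6.91 in EGA Bellaroi (−0.55, SE 0.17; adjusted p = 0.106), and 8 Tamaroi libraries lay below every EGA Bellaroi library. Ttu pre-miR005 had −1.81 (SE 0.64; adjusted p = 0.154).

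Ttu pre-miR006 and Ttu pre-miR132 had positive differences, 1.74 (SE 0.63) and 1.99 (SE 0.72), both with an adjusted p of 0.154. Both rested on season 2: pre-miR006 had 0.10 in season 1 and 3.38 in season 2, and pre-miR132 had −0.14 and 4.11. Without the 5 libraries, which were named for their low pre-miR132, they had 0.20 and 0.13. In season 2 alone 10 of the 159 hairpins were called, and in season 1 alone 0 (18 at an unadjusted p under 0.05).

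By position on the survey sequence, 47 hairpins lay on A, 59 on B and 53 on D genome contigs, with median differences of −0.11, −0.18 and −0.11, against −0.14 for all 159. No hairpin separated the genotypes completely over the 24 libraries or in the CG, and 3 did in the WG, all lower in Tamaroi (percent 1.89): Ttu pre-miR008, Ttu pre-miR019 and Ttu pre-miR095.

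For the genotype by treatment interaction 0 of 159 hairpins passed (percent called 0; 11 at an unadjusted p under 0.05). Ttu pre-miR109, placed on 5AS, had medians of −0.47 and −0.74 in Tamaroi CG and WG and −1.18 and 0.19 in EGA Bellaroi (interaction −2.37, SE 0.74; adjusted p = 0.368). Ttu pre-miR119, on 5DL, equalled it in 16 of 24 libraries (−2.58, SE 0.85; adjusted p = 0.368). Both hairpins were rare, with values not far above the floors of −4.66 to −2.51. At the floor were 1 Tamaroi library for pre-miR109, and 1 Tamaroi and 2 EGA Bellaroi libraries for pre-miR119.

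**Figure D3:**
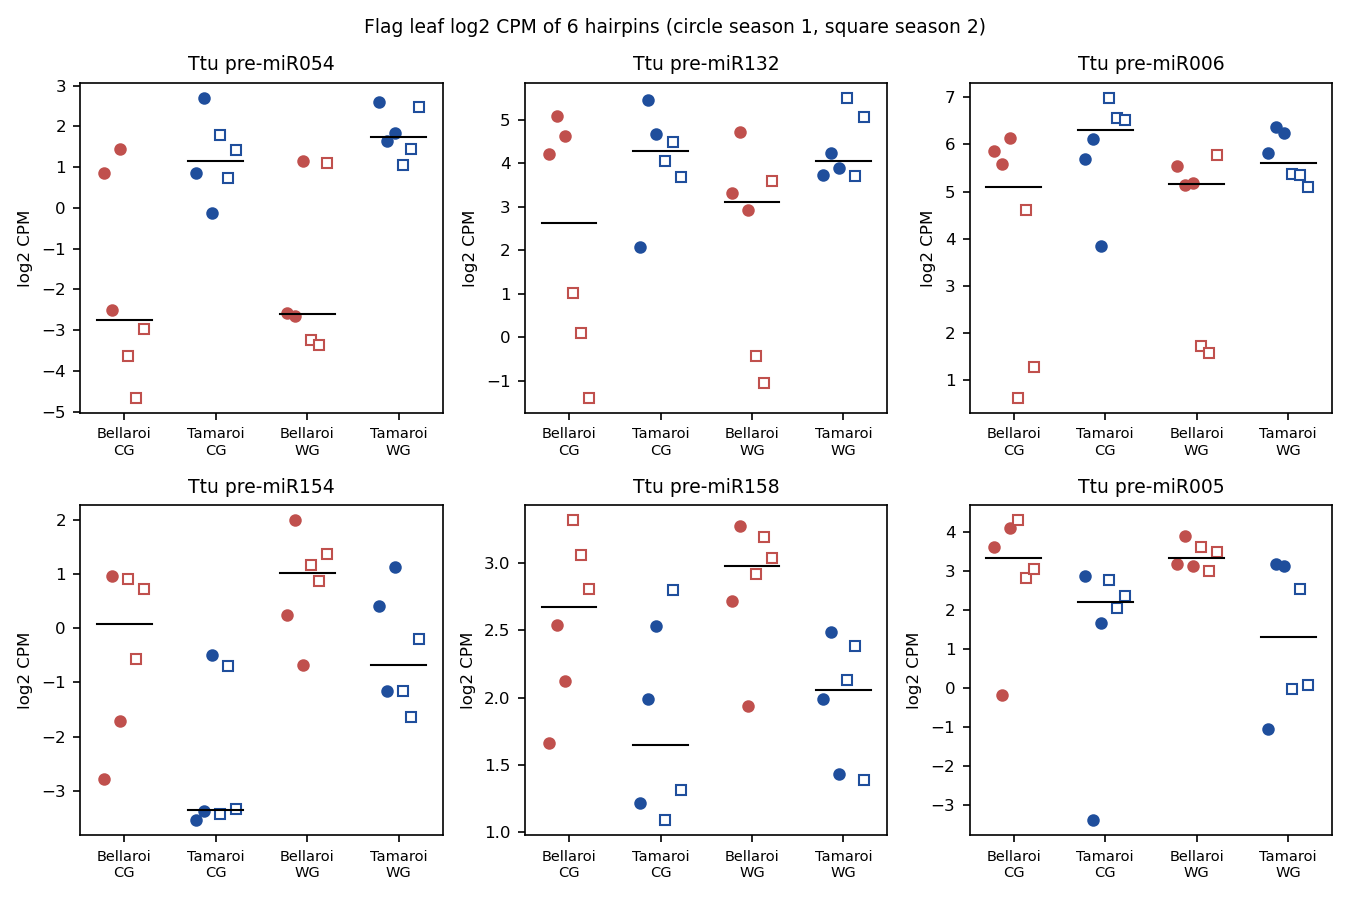
Log2 CPM of 6 hairpins in the 4 flag leaf groups; each point is 1 library (filled circle, season 1; open square, season 2; red, EGA Bellaroi; blue, Tamaroi), each line the median of 6. Ttu pre-miR054 splits EGA Bellaroi into libraries near 1 and libraries at −2.51 or lower, and Ttu pre-miR132 sets 5 season 2 libraries of EGA Bellaroi below the rest.

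The third question was whether these differences were those of the other tolerant and sensitive pair, Yawa and Tjilkuri, whose 24 flag leaf libraries were grown and treated alike. The difference between the pairs was tested in 1 fit over 48 libraries. Of the conserved miRNAs 0 passed (percent called 0), with 15 at an unadjusted p under 0.05, 12 of them more positive in Tamaroi and EGA Bellaroi. With season as a covariate or a replicate block 4 passed, and with median-ratio scaling 6. Zma-miR166a, Zma-miR156k and Gma-miR156k were among those called in each of these 3 fits (adjusted p = 0.000276 to 0.0444), and none of the 3 was called without the 5 EGA Bellaroi libraries (adjusted p = 0.207 to 0.240). Between Yawa and Tjilkuri alone 0 of 110 were called, with 17 at an unadjusted p under 0.05.

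Zma-miR166a had medians of 30.7 and 23.0 RPM in Yawa CG and WG and of 25.0 and 23.1 RPM in Tjilkuri, each below the median of EGA Bellaroi under the same watering. The Yawa minus Tjilkuri difference was 0.04 (SE 0.20), and the pair difference 0.97 (SE 0.28; adjusted p = 0.0561). Gma-miR156k had −0.82 between Yawa and Tjilkuri (SE 0.25) and a pair difference of 1.31 (SE 0.36; adjusted p = 0.0561). Zma-miR156k had −0.52 (SE 0.27) and a pair difference of 1.28 (SE 0.38; adjusted p = 0.0561). Over the 7 miR156 sequences the median was 0.49 in the pair of Tamaroi and −0.52 in that of Yawa.

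Osa-miR5077, Bdi-miR5054 and Gma-miR5368 had −0.05, 0.05 and −0.20 between Yawa and Tjilkuri, and pair differences of 1.14, 0.83 and 1.11 (adjusted p = 0.0582, 0.270 and 0.0665). The copper families had a median of 0.83 in the pair of Tamaroi and 0.53 in that of Yawa. Bdi-miR5200 had −0.64 between Yawa and Tjilkuri (SE 0.65), where 2 Tjilkuri CG libraries (1-a and 2-b) held 5948 and 7091 RPM. Without these 2 libraries, a choice made after seeing the data, 6 conserved miRNAs differed between the pairs. They included Gma-miR156k (adjusted p = 0.0369), Zma-miR166a and Zma-miR156k (both 0.0449).

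Of the hairpins 4 differed between the pairs (percent called 2.52). Pre-miR005 had −1.81 between Tamaroi and EGA Bellaroi and 5.67 between Yawa and Tjilkuri, where 9 of 12 Tjilkuri libraries were at the floor and Yawa ranged from 2.65 to 5.40; the pair difference was −7.48 (SE 1.09; adjusted p = 1.98e-06). Of the other 3 Tjilkuri libraries, 1-a and 2-b of the CG had 4.80 and 4.05. In this hairpin EGA Bellaroi, at −0.18 to 4.29, overlapped Yawa, and 1 of its 12 libraries was below 2.81.

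Pre-miR054 and pre-miR056 had −1.10 and −1.11 between Yawa and Tjilkuri and pair differences of 4.38 (SE 0.92) and 4.26 (SE 0.90), both with an adjusted p of 0.00108. In Tjilkuri 1 of 12 libraries was at the floor of pre-miR054, and in Yawa 1 of 12. Pre-miR154 had 0.40 and a pair difference of −2.06 (SE 0.59; adjusted p = 0.0436). Without the 5 EGA Bellaroi libraries pre-miR005 had −7.37 and still passed. Pre-miR054, pre-miR056 and pre-miR154 had 3.15, 3.16 and −1.70 and no longer passed (adjusted p = 0.0501, 0.0501 and 0.229).

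**Figure D4:**
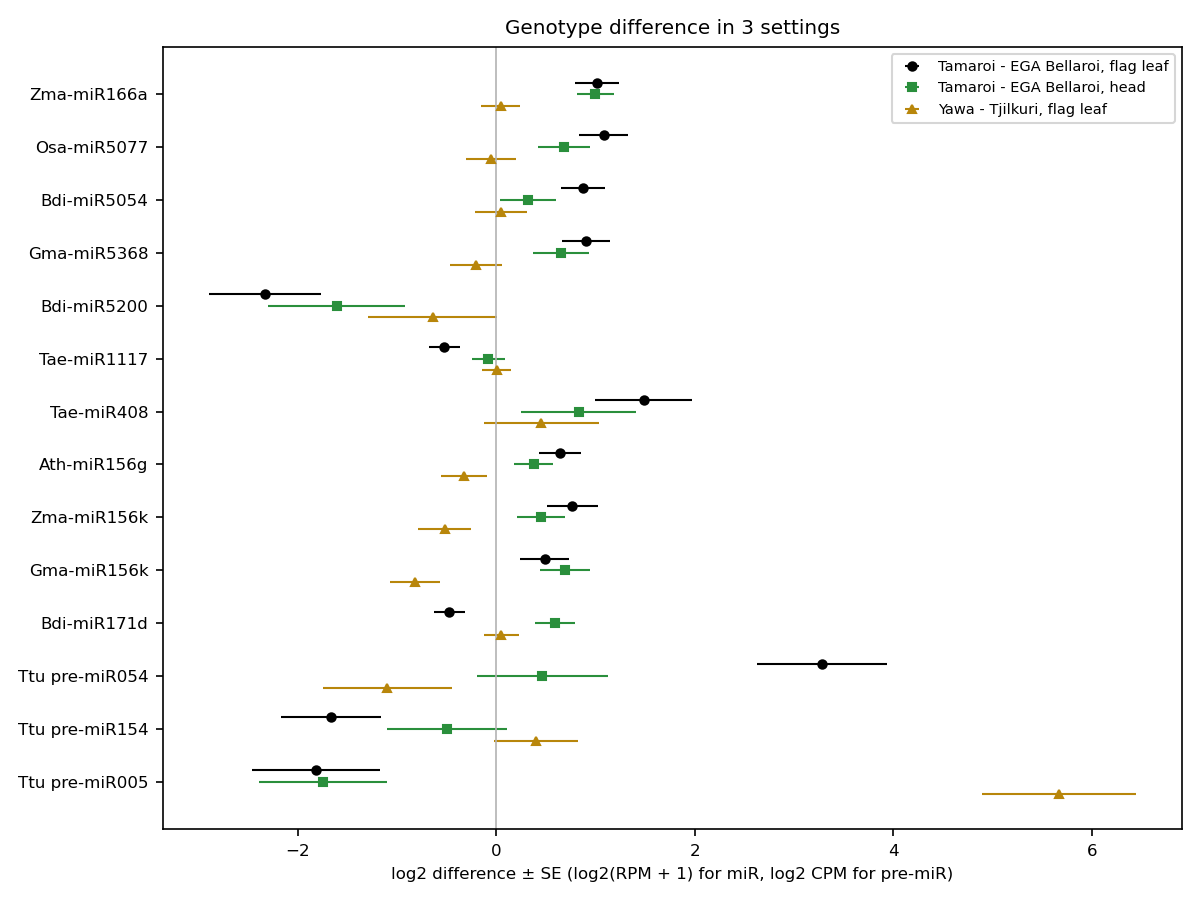
Log2 difference ± SE of 14 miRNAs and hairpins (log2(RPM + 1) for miRNAs, log2 CPM for pre-miRNAs) for Tamaroi minus EGA Bellaroi in the flag leaf (circles) and head (squares) and for Yawa minus Tjilkuri in the flag leaf (triangles). Zma-miR166a is near 1 in leaf and head of the first pair and near 0 in the second, Bdi-miR171d is below 0 in the leaf and above 0 in the head, and Ttu pre-miR005 has opposite signs in the pairs.

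The fourth question was whether the leaf differences were also those of the developing heads of the same 24 plants. In the heads 3 conserved miRNAs were called, all higher in Tamaroi (percent called 2.73): Bdi-miR166a (1.60, SE 0.28; adjusted p = 5.86e-05), Zma-miR166a (1.00, SE 0.19) and Hvu-miR5049c (0.94, SE 0.23). Between the tissues, 0 of 110 genotype differences passed (percent called 0; 5 at an unadjusted p under 0.05). That fit treated leaf and head of a plant as independent, and with the plant as a replicate block 1 passed.

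Zma-miR166a had medians of 56.9 and 41.4 RPM in Tamaroi heads (CG and WG) and of 32.5 and 21.2 RPM in EGA Bellaroi heads. All 12 Tamaroi heads had 30.0 to 75.5 RPM and all 12 EGA Bellaroi heads 15.4 to 36.3 RPM. The leaf and head differences were 1.01 and 1.00, and their own difference 0.01 (SE 0.27; adjusted p = 0.972).

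Bdi-miR171d had 9.98 to 47.7 RPM in Tamaroi heads and 9.08 to 29.0 RPM in EGA Bellaroi heads, a difference of 0.60 (SE 0.20; adjusted p = 0.0745) against −0.47 in the leaf (adjusted p = 0.0631), neither of which passed. The difference between the tissues was −1.07 (SE 0.28; adjusted p = 0.0517). It passed with the plant as a replicate block (adjusted p = 0.0373), and was −0.83 after median-ratio scaling (adjusted p = 0.388). Zma-miR171d, nearly identical to it, had 0.60 in the head and −0.41 in the leaf (difference −1.01, SE 0.31; adjusted p = 0.111), and Osa-miR166k −0.83 (SE 0.33; adjusted p = 0.524).

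Bdi-miR5200 was lower in heads than in leaves of the same plant in all 24 plants. The 12 Tamaroi heads had 0.802 to 44.7 RPM, the heads of the 5 EGA Bellaroi plants that stood apart 14.2 to 212 RPM, and those of WG 1-a and 1-b 15.4 and 392 RPM. The other 5 EGA Bellaroi heads had 0.849 to 11.6 RPM. The head difference was −1.61 (SE 0.69; adjusted p = 0.183).

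For the hairpins 0 of 159 genotype differences were called in heads (percent called 0; 21 at an unadjusted p under 0.05), and 0 of 159 differed between the tissues (percent called 0; 5 at an unadjusted p under 0.05). Pre-miR054 was at the floor in both organs of all 5 EGA Bellaroi plants that stood apart. It was also at the floor in the leaf of CG 1-b and WG 1-b, whose heads had 1.67 and 0.38, and in both organs of WG 1-a. Its difference was 0.47 (SE 0.66) in heads against 3.28 in leaves (difference 2.82, SE 0.93; adjusted p = 0.441). With the plant as a replicate block the adjusted p in limma's test was 0.0692, and again 0 of 159 hairpins passed. Pre-miR132 was between −2.88 and −1.08 in the heads of the 5 plants, of which 4 were at the floor of their library. In the other 7 EGA Bellaroi heads it was between −2.79 and 1.44, and 2 were at the floor. Both upper ends came from shallow heads. The −1.08 was the floor of WG 2-b, at 0.86 M reads. The 1.44 was in WG 1-a, at 0.71 M reads with a floor of −0.14. These 2 ranges thus depend on depth and are not a comparison of abundance.

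**Figure D5:**
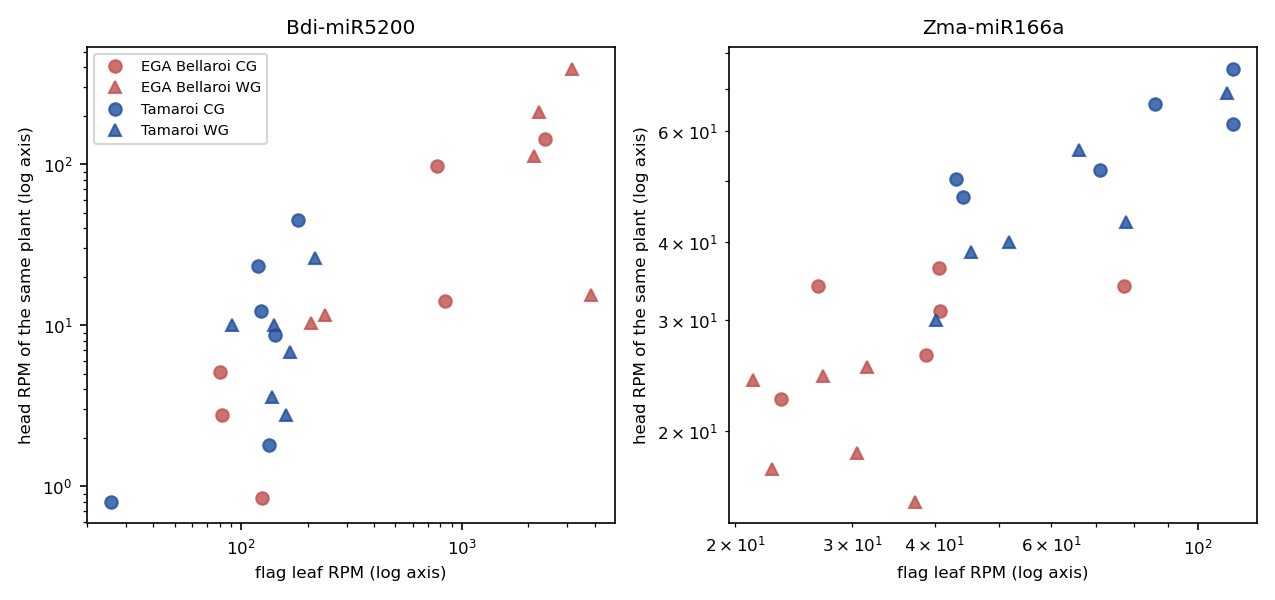
Flag leaf RPM against head RPM of the same plant (both log axes) for Bdi-miR5200 and Zma-miR166a; each point is 1 of 24 plants (red, EGA Bellaroi; blue, Tamaroi; circle, CG; triangle, WG). Plants with 771 RPM or more of Bdi-miR5200 in the leaf are all EGA Bellaroi, and Zma-miR166a of Tamaroi lies above most of EGA Bellaroi in both organs.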

How the data were processed

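Small RNA from flag leaves was sequenced as 1 library per plant. After trimming and matching to plant entries of miRBase with mismatches allowed, the authors scaled reads to all small RNA reads of a library and deposited RPM. RPM of each miRNA therefore moves with the share of other small RNAs. The second table was deposited as log2 CPM for hairpins placed on the bread wheat survey sequence; the sources used here do not say how its reads were counted, and the lowest value of each library (its floor) was taken as 0 reads. Replicates were separate, and 0 columns lacked a library. Groups came from the sample labels alone.

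Limma 3.58.1 in R 4.3.3 (trended empirical Bayes, two-sided, Benjamini-Hochberg over each whole table, threshold 0.05) was fitted to log2(RPM + 1) and to the deposited log2 CPM with genotype and treatment over 24 libraries. Fold changes on the log2(RPM + 1) scale understate those of rare miRNAs. Further fits covered the interaction, the pairs (48 flag leaf libraries) and the tissues (48 libraries). The main tissue fit treated leaf and head of a plant as independent, and an alternative took the plant as a block. Permutation tests used 100000 resamples for 12 against 12 and were exact for 6 against 6. Tables, permutations and figures were made in Python 3.11.15 (scipy 1.17.1, numpy 2.4.6, matplotlib 3.10.9, pandas 2.3.3). The genotype fits were also run on simulated data with independent normal noise. That noise had no floors and no libraries that stand apart, so it does not cover features such as pre-miR054 or Bdi-miR5200.

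Named were the miRNAs called, or the 15 of smallest p, those passing the fold criteria in both treatments and the 3 of smallest p in each other fit; for hairpins the 8 and 2 of smallest p; and examples of lists. Members, lists and tests were chosen with earlier results of these data known. Alternatives were other pseudocounts (0.5 and 5), scaling, filters, variance models, seasons, treatments, blocks and libraries left out. Same-labelled libraries of different groups had a mean r of 0.07 for miRNAs and −0.03 for hairpins, against −0.06 and 0.01 for libraries of the other season. The main fits used no block for label or season. Leaf and head of a plant were matched by its number in the labels.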

Additional observations from a re-analysis of the deposited data

Results flagged for a closer look

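In 20 of 144 groups of 6 values looked at (13.9%), 1 library lay far from the other 5 by Dixon's criterion. Its rate of about 1 in 20 by chance holds for independent normal values. RPM was not logged here and the same libraries recur, so the rates cannot be compared directly. No cause was tested. In EGA Bellaroi CG 1-b, which also held the highest total of conserved miRNAs (62618 RPM, next 38837), Zma-miR166a was 77.2 RPM (next 40.8), Ath-miR156g 14.0, Zma-miR156k 23.0 and Gma-miR156k 3797 RPM, all highest of the group, and pre-miR005 was lowest at −0.18 log2 CPM. EGA Bellaroi CG 2-b had 17.2 RPM of Tae-miR408 (next 1.95) and 1169 RPM of Zma-miR528a (next 318). EGA Bellaroi CG 2-c had 2370 RPM of Bdi-miR5200, and CG 2-a had 168 RPM of Tae-miR395b (next 58.4). EGA Bellaroi WG 2-c had 25.8 RPM of Tae-miR408, 26.8 RPM of Zma-miR156k and 203 RPM of Bdi-miR528 (next 61.7). EGA Bellaroi WG 1-a had −2.57 log2 CPM of pre-miR119 (next 0.15).

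In Tamaroi, WG 2-a had 63.5 RPM of Gma-miR5368 (next 30.3) and WG 1-a 9.02 RPM of Tae-miR1117 (next 5.11). Tamaroi CG 1-b had 4.43 RPM of Bdi-miR171d (next 2.73) and −3.37 log2 CPM of pre-miR005 (next 1.65), CG 1-a had 1303 RPM of Zma-miR398b (next 492), and CG 2-b was the shallowest of its group at 3.66 M reads (next 6.00 M).

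The genotype difference was unlike that of Yawa and Tjilkuri in 4 hairpins, by the test of the difference itself: −7.48 for pre-miR005, 4.38 for pre-miR054, 4.26 for pre-miR056 and −2.06 for pre-miR154.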

How the results depend on the processing

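The count of conserved miRNAs called (6) was 14 with median-ratio scaling, 11 with a replicate block, 1 in season 1 only, in season 2 only and in the WG only, 0 in the CG only and 0 without the 5 EGA Bellaroi libraries (22 at an unadjusted p under 0.05). The 1 called in season 1 only was not among the 6, and the 1 called in season 2 only and in the WG only was. The count was 4 to 11 when 1 library was left out, with 10 without EGA Bellaroi CG 2-b and 11 without WG 2-c. Hairpins called (2) were 8 with 48 flag leaf libraries in the fit, 0 in season 1, the CG or the WG only, 10 in season 2 only, 0 without the 5 libraries (18 at an unadjusted p under 0.05), and 2 to 5 when 1 was left out (5 without Tamaroi CG 1-c, 4 without EGA Bellaroi CG 1-a). Interactions gave 0 to 0 under each library left out. Between the pairs, conserved calls (0) were 4 with season as a covariate, 4 with the replicate block, 6 with scaling and 6 without 2 Tjilkuri libraries; hairpin calls (4) were 2 without the 5 EGA Bellaroi libraries and 3 with the block. Between the tissues 1 conserved miRNA passed with the plant as replicate block and 0 with scaling (smallest adjusted p = 0.388; 2 at an unadjusted p under 0.05, against 5). By the fold criteria, 4 remained above 2-fold in place of 10. Pre-miR132 turned to −0.14 in season 1 only.

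The replicate block (season and letter) moved the conserved count from 6 to 11 and the hairpin count not at all (2). Same-labelled libraries of different groups correlated above 0.1 in 15 of 36 pairs for miRNAs and 11 of 36 for hairpins. With the same season and another letter it was 31 of 72 and 34 of 72, and with the other season 28 of 108 and 41 of 108. Same-labelled libraries share a season, and its effect on these correlations was not tested. Of the values of named features under alternatives, libraries left out in turn aside, 328 kept direction and side of the threshold, 43 lost and 36 gained the call, and 1 turned. Fits without the 5 EGA Bellaroi or 2 Tjilkuri libraries, with voom weights (5 called) or a common floor (2 called) were chosen after seeing the data. The edgeR alternatives on recovered reads were not run. In the shallowest Tamaroi or EGA Bellaroi flag leaf library 1 read is worth 0.467 RPM, so leaf values near 1 RPM are coarse. In the EGA Bellaroi heads WG 1-a and WG 2-b, 1 read is worth 1.40 and 1.16 RPM, so low values there are coarser.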
